A study of Homo sapiens with 9 samples.

Results

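The 40 genes described here encode factors that make, coat and shorten the poly(A) tail of messenger RNA. They were chosen by name, and each was looked up in the gene count tables through its RefSeq transcripts, keeping for each gene the transcript entry with most reads. All 40 were found among the 26791 genes of the tables. They fall into CPSF with its partners (8 genes), CSTF (4), CFIm (3), CFIIm (2), the canonical and non-canonical poly(A) polymerases (5), the poly(A)-binding proteins (4), the PAN complex (2), the CCR4-NOT complex (11) and PARN (1).

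The libraries were made with CLT-seq, a method that primes reverse transcription of total RNA with an adaptor-carrying oligo(dT), from unmodified HEK293T cells, a transformed human embryonic kidney line, and unmodified A549 cells, a human lung carcinoma line. Both lines were grown in culture without a stated treatment. In HEK293T the primers were unanchored (T12, T18 and T30, with 12, 18 and 30 T) or anchored, with 18 T followed by 1 base other than T (T18V), that base and any 1 base (T18VN), or that base and any 2 bases (T18VNN). A549 was primed with T12 only. Gene counts were analysed in 7 of the 9 libraries, 1 for each HEK293T primer and 1 for A549, so no primer and no cell line had a replicate of its own. The design text lists 1 primer as T12VN whose sequence holds 18 T and 2 anchor bases, and it was read as T18VN.

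The tail is built in the nucleus. CPSF recognises the polyadenylation signal and cuts the transcript, CSTF binds the downstream element, CFIm binds upstream elements and steers the choice of site, CFIIm links cutting to termination, and a poly(A) polymerase then adds the tail. Nuclear PABPN1 and cytoplasmic PABPC1 coat the tail. PAN2-PAN3 and CCR4-NOT remove it in the cytoplasm, and PARN trims tails of many small noncoding RNAs. Because an oligo(dT) primer needs a run of A to sit on, the messages of these factors were measured through the same structure that the factors act on.

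Between 1500843 (A549) and 5208488 (HEK293T T18) reads lay on genes, and the 40 factors took 0.244% of them in A549 and 0.338% to 0.450% in HEK293T. CPM below is counts scaled to 1000000 gene reads per library, and 3 reads, the detection floor, corresponded to 0.576 to 2.00 CPM. In the A549 library 8 of 8 A549 marker genes lay above every HEK293T library, with a summed level of 15197 CPM against 0 to 2.70 CPM. Of 8 HEK293T markers 6 lay below the HEK293T range and 1, UCHL1, above it (534 CPM against 92.3 to 156 CPM). Their summed level was 666 CPM against 3740 to 5291 CPM, most of the 666 CPM from UCHL1. The markers were partly chosen with earlier results of these data known, so these counts describe the libraries and are not an independent check. Each library held reads for 39 or 40 of the factors. Of the 40 genes, 16 overlapped another gene, whose reads could be counted in both, since a use of strand is not given in the sources used here.

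PABPC1, the main cytoplasmic poly(A)-binding protein, was the only factor that differed between primer types past the threshold, and PABPN1, its nuclear counterpart, had values in the opposite direction that did not pass. PABPC1 (chromosome 8, 101715144 to 101734315, minus strand, hg19) stood at 426, 445 and 419 CPM with T12, T18 and T30, and at 1274, 1039 and 1730 CPM with T18V, T18VN and T18VNN. All 3 anchored libraries lay above all 3 unanchored ones, with means of 430 ± 13.8 and 1347 ± 351 CPM (SD, n = 3 primers each). The log2 fold change, anchored over unanchored, was 1.48 ± 0.29 (SE, edgeR quasi-likelihood test, adjusted p = 0.0348).

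The PABPC1 call was lost when any of 5 of the 6 libraries was left out. The adjusted p was 0.0708 without T12, 0.104 without T18, 0.0920 without T30, 0.0738 without T18V and 0.153 without T18VNN, and 0.0372 without T18VN. The log2 fold change stayed between 1.24 and 1.63 across these fits. PABPC1 overlaps the microRNA gene MIR7705, and its retrogene copy PABPC3 held 0 to 2 reads in any library.

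PABPN1 (chromosome 14, 23789397 to 23795394, plus strand, hg19) stood at 880, 916 and 994 CPM with T12, T18 and T30. The anchored primers gave 339, 797 and 445 CPM with T18V, T18VN and T18VNN. All 3 anchored values lay below the unanchored ones, yet the log2 fold change of -0.996 ± 0.34 (SE) missed the threshold (edgeR, adjusted p = 0.175). Nearly the same reads were listed for the readthrough gene BCL2L2-PABPN1 (2883 beside 2879 for PABPN1 with T12), while BCL2L2 itself had 5 to 25 reads.

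Per length, the order of these proteins' messages depended on the primer. The ratio of PABPC1 to PABPN1 FPKM (the deposited reads per transcript length and library total) was 0.525, 0.527 and 0.457 with T12, T18 and T30. With T18V, T18VN and T18VNN it was 4.08, 1.41 and 4.22, and in A549 with T12 it was 1.48. PABPN1 was therefore the more abundant message per length in every unanchored HEK293T library and PABPC1 in the other 4 libraries. Together this pair supplied 38.2% to 48.3% of all reads on the 40 factors.

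**Figure D1:**
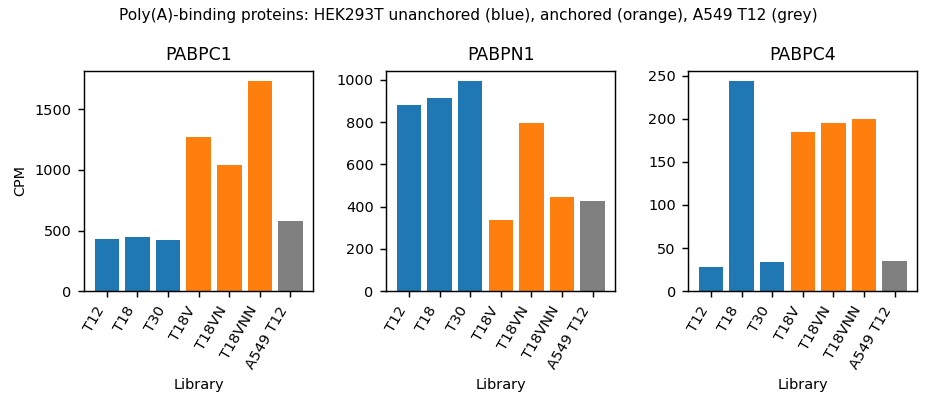
Levels in CPM (bars, 1 library each, axis from 0) of PABPC1, PABPN1 and PABPC4 by library, with unanchored HEK293T primers in blue, anchored ones in orange and A549 T12 in grey. PABPC1 reached 1039 to 1730 CPM with anchored primers against 419 to 445 CPM without an anchor, and PABPC4 was low with T12 and T30 only.

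PABPC4, an inducible cytoplasmic poly(A)-binding protein, was lower with T12 and T30 than with the 4 primers with 18 T. Each primer had 1 library, so T-run length and other differences between those libraries cannot be told apart. PABPC4 stood at 28.4, 243 and 33.3 CPM with T12, T18 and T30, and at 184, 195 and 199 CPM with T18V, T18VN and T18VNN. All 4 primers with 18 T gave at least 5.53 times the level of T12 or T30, and A549 with T12 gave 34.6 CPM. In the primer contrast its log2 fold change was 0.74 ± 0.66 (SE, edgeR adjusted p = 0.662), and without T18 it was 2.46 with an adjusted p of 0.0242.

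That pattern was noticed in the data and was counted as a description. In 7 of the 39 tested factors all 4 of the 18-T libraries lay above T12 and T30 (12.3% of all genes tested), and in 2 they lay below (7.56% of all genes). The 7 were PABPC4, PABPC1, CSTF2T, FIP1L1, PCF11, CNOT3 and CNOT8. Apart from PABPC4 the lowest 18-T library was 1.05 to 1.94 times the higher of T12 and T30. PABPC1L, an oocyte-enriched paralogue, had 0 to 33 reads, which allows up to 0.917 CPM where it had 0 with T12.

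The factors stood apart between primer types about as often as other genes. Of 39 factors tested (CLP1 was too low), 1 passed at an adjusted p under 0.05, against 1.35% of the 10924 genes tested (0.787% higher and 0.568% lower), and 5 had an unadjusted p under 0.05, against 15.6%. In 7 factors all anchored libraries lay above all unanchored ones (16.8% of all genes), and in 3 below (6.80% of all genes), 10 of 39 in all against 23.6%. The factors' median log2 fold change was 0.23, with 22 positive and 17 negative, beside -0.00 for all genes.

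Spread between primers was wide, with a biological coefficient of variation of 0.484, and it measures primers rather than cultures. The highest HEK293T library was a median 2.76 times the lowest for the factors tested, against 3.54 times for all genes tested with reads in all 6. Without TMM scaling the median of all genes moved to 0.17, that of the factors to 0.41 and the calls over all genes from 86 higher and 62 lower to 154 and 57. CPSF1, NUDT21, CNOT1 and CNOT6L then had log2 fold changes of the opposite sign, all within 0.1 of 0.

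**Figure D2:**
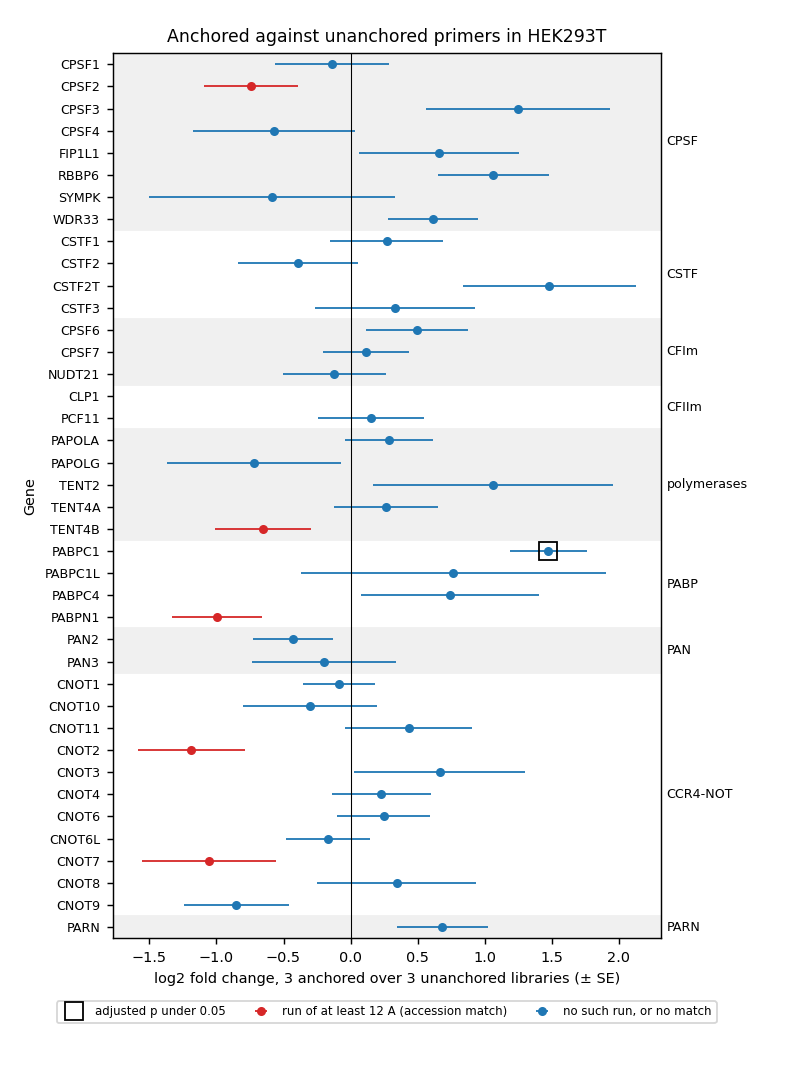
Log2 fold change of the 39 tested factors, anchored over unanchored HEK293T primers (points, with SE bars from edgeR, 3 libraries a side), grouped by complex; red marks a matched reference transcript with at least 12 A in a row, and the square marks PABPC1, the only gene past the threshold. The 5 red points all lie below 0, and CLP1 was not tested.

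Internal runs of A in the factors' own transcripts are shown here because oligo(dT) can also pair with them. In GENCODE release 29, a reference transcript with the same accession was found for 38 of the 40 genes. Of these, 5 held at least 12 consecutive A (the length of the shortest primer, a threshold set after values were seen). They were CNOT2 (25 A), CNOT7 (26), CPSF2 (18), TENT4B (17) and PABPN1 (14), with the run in the 3′ UTR in each case. Another 5 factors had such a run only in another of their transcripts. They were CNOT4 (17 A), PABPC1L (17), SYMPK (16), CNOT10 (14) and CNOT9 (13), and of these only CNOT9 is printed. The sites on GRCh38, plus strand, are chr12:70353912-70353941 (CNOT2), chr14:92168244-92168271 (CPSF2), chr16:50230296-50230322 (TENT4B), chr14:23325345-23325368 (PABPN1) and chr2:218595746-218595768 (CNOT9), printed 5′ to 3′ with the A run in capitals and CNOT7 not shown:
CNOT2: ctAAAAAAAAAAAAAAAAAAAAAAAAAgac
CPSF2: tctccAAAAAAAAAAAAAAAAAAgggca
TENT4B: ataggAAAAAAAAAAAAAAAAAggtca
PABPN1: gaattAAAAAAAAAAAAAAgaaaa
CNOT9: ggctcAAAAAAAAAAAAAcccat

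The 5 factors whose matched transcript held such a run all had negative log2 fold changes, with a median of -0.996. The 32 tested factors with shorter runs had a median of 0.27 and 12 negative values. Runs had been planned to be counted from 8 A. The 8 factors with 8 to 11 A had a median of 0.27 and 1 negative value, so the split rests on the later threshold of 12. Over all genes tested, those with 8 to 11 A had a median of 0.10 and 44.3% negative values. Over all genes tested, those with at least 12 A (1353 genes) had a median of -0.29 and 67.0% negative values, and those with fewer (9014 genes) had 0.05 and 47.4%. At 18 A or more (458 genes) the median was -0.46, with 73.1% negative and 3.28% called lower, and no gene called higher. None of the 5 factors passed the threshold by itself (edgeR).

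Over single genes the relation was weak, with a Spearman's rho of run length against log2 fold change of -0.23 across the 37 factors and -0.02 across 10367 genes, which share the same 6 libraries. T18 against the 3 anchored primers holds the T run at 18 and differs by the anchor, with 1 unanchored library and so no spread of its own. At that length T18 lay above all 3 anchored libraries for CNOT2 (153 against 55.4 to 148 CPM), CNOT7 (233 against 49.9 to 144 CPM), PABPN1 (916 against 339 to 797 CPM) and TENT4B (62.2 against 34.7 to 57.9 CPM). For CPSF2 it lay within them (112 against 61.0 to 120 CPM). Factors without such a run also had T18 above the anchored libraries. Among them were PAN2 (89.9 against 68.3 to 76.4 CPM) and PABPC4 (243 against 184 to 199 CPM). The share over all genes was not counted. T18 is also 1 of the 3 unanchored libraries behind the fold changes above, so this is not separate evidence. Transcript length moved with the runs, at a median of 5083 bases for genes with at least 12 A and 2657 bases for the rest, and its part was not tested. The deposited entry and the reference transcript often differed in length: for CNOT7 (2755 and 6913 bases) and CPSF2 (4919 and 13035 bases) the run lies farther from the start of the reference transcript than the deposited entry is long.

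Requiring the 2 lengths to lie within 5% left CNOT2 as the only factor with such a run, and a median of -0.32 over 880 genes. Taking the longest run in any transcript of the gene, 10 factors had at least 12 A and 8 of them were negative. The added factors were CNOT9, SYMPK, CNOT10, CNOT4 and PABPC1L, of which CNOT4 and PABPC1L were positive. The CNOT10 run lay in a non-coding retained-intron transcript of 811 bases and the SYMPK run in a 5′ UTR, so these are not like the 3′ UTR runs above.

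**Figure D3:**
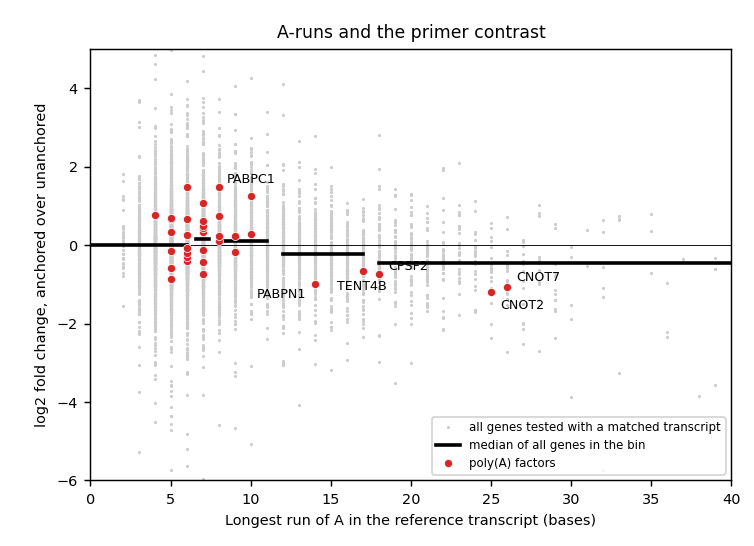
Log2 fold change, anchored over unanchored, against the longest run of A in the matched reference transcript (bases) for 10367 genes (grey, 21 outside the axes), with the median of each run-length bin (black bars; the last bin continues past the axis) and the 37 factors in red. The black bars are below 0 from 12 A on, as are the 5 factors there.

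Among CPSF and its partners, none of 8 factors passed the threshold (edgeR, 1 with an unadjusted p under 0.05, and 0 by DESeq2), beside 1.35% called and 15.6% with an unadjusted p under 0.05 over all genes, so nothing is read from the count. RBBP6, a ubiquitin ligase that activates the cleavage machinery, stood at 23.8, 48.4 and 65.3 CPM with T12, T18 and T30. It stood at 112, 83.1 and 131 CPM with T18V, T18VN and T18VNN, all above the unanchored libraries (log2 fold change 1.06 ± 0.41 SE, edgeR adjusted p = 0.244). WDR33, which contacts the polyadenylation signal, had 68.8, 39.2 and 66.7 CPM without an anchor and 109, 102 and 89.9 CPM with one (log2 fold change 0.62 ± 0.34 SE, adjusted p = 0.416).

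CPSF3, the endonuclease that makes the cut, had few reads (4 to 45 in HEK293T) and was also higher in all 3 anchored libraries (8.69 to 12.5 against 1.80 to 5.81 CPM, log2 fold change 1.25 ± 0.69 SE, adjusted p = 0.416). Its catalytically inactive partner is CPSF2, whose reference transcript holds the run of 18 A shown above, beyond the length of the deposited entry. CPSF2 had 123, 112 and 168 CPM without an anchor and 90.6, 120 and 61.0 CPM with one. The groups overlapped (log2 fold change -0.74 ± 0.35 SE, adjusted p = 0.338).

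CPSF1, the large scaffold of the complex, was among the steadiest factors, at 19.3, 17.9 and 17.6 CPM without an anchor and 22.0, 16.7 and 17.2 CPM with one. SYMPK, the symplekin scaffold, was the least abundant factor per length, with a median of 0.222 FPKM over the HEK293T libraries against 66.95 FPKM for PABPC1, the most abundant. It had 9, 13 and 25 reads with T12, T18 and T30 and 12, 27 and 7 reads with T18V, T18VN and T18VNN, too few to order the primers. CPSF4 and FIP1L1, both of which bind RNA in the complex, ranged from 7.21 to 27.8 CPM and from 5.81 to 23.0 CPM with overlapping groups.

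In CSTF the paralogous RNA-binding subunits CSTF2 and CSTF2T gave different patterns. CSTF2T, an intronless copy of CSTF2, had 5.20, 7.49 and 2.25 CPM with T12, T18 and T30 and 8.17, 18.5 and 21.4 CPM with T18V, T18VN and T18VNN. All anchored values were above the unanchored ones (log2 fold change 1.48 ± 0.65 SE, edgeR adjusted p = 0.296). CSTF2 had 25.1, 16.1 and 29.7 CPM without an anchor and 25.2, 20.7 and 14.7 CPM with one, which overlap.

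Per length, CSTF2 made up 88.2%, 76.9% and 95.3% of the pair with T12, T18 and T30 and 82.7%, 63.4% and 51.6% with T18V, T18VN and T18VNN. CSTF2T lies within the span of PRKG1, for which 10 to 34 reads were listed in the HEK293T libraries. CSTF1 and CSTF3, the other subunits, had 15.0 to 35.0 and 5.79 to 18.3 CPM across HEK293T. Their groups overlapped.

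No factor of CFIm or CFIIm passed the threshold (edgeR, 0 with an unadjusted p under 0.05 and 0 by DESeq2), and CLP1 was not tested. Over all genes edgeR called 1.35% and 15.6% had an unadjusted p under 0.05, so nothing is read from a count of 0 in so few genes. NUDT21, the CFIm subunit that binds UGUA, ranged from 24.1 to 41.1 CPM with log2 fold change -0.12 ± 0.38 (SE). Of its alternative partners, CPSF7 stood at 83.8, 56.6 and 80.2 CPM without an anchor and 84.9, 79.1 and 105 CPM with one. CPSF6 had 31.2, 29.2 and 27.0 CPM without and 42.3, 31.6 and 64.7 CPM with an anchor, higher in all 3 anchored libraries by a log2 fold change of 0.49 ± 0.38 (SE, edgeR adjusted p = 0.5998). CPSF7 was the more abundant partner per length in all 7 libraries, with 75.1% to 84.7% of the pair in HEK293T. In CFIIm, PCF11 ranged from 17.6 to 28.5 CPM and CLP1 had 2 to 18 reads.

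PAPOLA, the main nuclear poly(A) polymerase, held 90.0% to 98.3% of its pair with PAPOLG per length in HEK293T. Its levels were 144, 71.0 and 97.8 CPM with T12, T18 and T30 and 146, 135 and 148 CPM with T18V, T18VN and T18VNN. A PAPOLA transcript that ends 31519 bases upstream on the genome had 25.4%, 24.3% and 16.1% as many reads as the main entry with the unanchored primers. With the anchored primers it had 10.0%, 12.1% and 9.91%, lower in all 3, and in A549 23.9%. PAPOLG had 8.87, 12.9 and 7.21 CPM without an anchor and 6.04, 3.79 and 9.99 CPM with one.

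The non-canonical polymerases TENT4A and TENT4B, which add mixed tails, were nearly equal in CPM with T18VN and T18VNN and furthest apart with T30. TENT4A stood at 36.4, 37.2 and 17.6 CPM without an anchor and 45.5, 42.5 and 35.2 CPM with one. TENT4B, whose reference transcript holds the run of 17 A, had 49.8, 62.2 and 74.8 CPM without and 57.9, 41.4 and 34.7 CPM with an anchor (log2 fold change -0.66 ± 0.36 SE, edgeR adjusted p = 0.413). Per length TENT4A made up 60.6%, 55.7% and 33.1% of the pair with T12, T18 and T30 and 62.3%, 68.4% and 68.1% with T18V, T18VN and T18VNN. TENT2, a cytoplasmic poly(A) polymerase, had 3 to 23 reads in HEK293T.

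PAN2, the catalytic subunit of the PAN deadenylase, was lower in every anchored library, though by little. It had 85.6, 89.9 and 80.2 CPM without an anchor and 68.9, 76.4 and 68.3 CPM with one (log2 fold change -0.43 ± 0.30 SE, edgeR adjusted p = 0.541). PAN3, its adaptor, ranged from 7.68 to 18.5 CPM with overlapping groups.

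In CCR4-NOT none of 11 factors passed in edgeR, 1 had an unadjusted p under 0.05, and DESeq2 called 1, CNOT2. Over all genes edgeR called 1.35%, 15.6% had an unadjusted p under 0.05 and DESeq2 called 605 of 10924, so a count of 0 or 1 among 11 is near the background. CNOT2, a structural subunit, had 179, 153 and 266 CPM with T12, T18 and T30 and 55.4, 93.3 and 148 CPM with T18V, T18VN and T18VNN. All anchored values lay below the unanchored ones, by a log2 fold change of -1.19 ± 0.40 (SE, edgeR adjusted p = 0.174; DESeq2 adjusted p = 0.04999). Its run of 25 A, shown above, lies 1055 bases from the end of a reference transcript as long as the deposited entry (3152 bases).

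CNOT7 is 1 of the 2 paralogous deadenylase subunits of the Caf1 type. It had 82.3, 233 and 133 CPM without an anchor and 50.1, 144 and 49.9 CPM with one (log2 fold change -1.06 ± 0.50 SE, edgeR adjusted p = 0.338). The groups overlapped through T18VN. CNOT8, the other paralogue, had 5.504, 12.1 and 5.86 CPM without and 13.1, 9.13 and 11.7 CPM with an anchor. CNOT7 therefore held 93.3% to 95.5% of the pair per length with unanchored primers and 77.9%, 93.6% and 79.9% with T18V, T18VN and T18VNN.

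CNOT9, a subunit that docks partner proteins, had 36.7, 76.8 and 50.9 CPM without an anchor and 30.9, 44.8 and 27.2 CPM with one (log2 fold change -0.85 ± 0.39 SE, edgeR adjusted p = 0.325). CNOT1, the scaffold, was steady at 396, 342 and 380 CPM without and 444, 353 and 391 CPM with an anchor. CNOT11 was high in all HEK293T libraries but T30, at 289, 181 and 56.3 CPM without and 201, 344 and 245 CPM with an anchor. It lies on chromosome 2 at 101869345 to 101886778 (plus strand, hg19), and the T30 value drew on 125 reads.

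The deadenylase paralogues of the Ccr4 type were close to level in HEK293T. CNOT6 had 55.0, 61.2 and 35.6 CPM without an anchor and 76.0, 74.6 and 51.9 CPM with one. CNOT6L had 63.9, 63.0 and 64.9 CPM without and 57.2, 59.5 and 75.5 CPM with an anchor. Per length CNOT6 made up 43.4% to 65.0% of the pair and led in 4 of 6 HEK293T libraries. The remaining genes listed with CCR4-NOT, CNOT3, CNOT4 and CNOT10, had overlapping groups, with ranges of 3.06 to 20.2, 24.8 to 51.0 and 14.0 to 52.3 CPM.

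PARN had 35.5, 29.6 and 25.7 CPM with T12, T18 and T30 and 47.2, 63.9 and 52.7 CPM with T18V, T18VN and T18VNN. All anchored libraries lay above the unanchored ones (log2 fold change 0.68 ± 0.34 SE, edgeR adjusted p = 0.366).

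**Figure D4:**
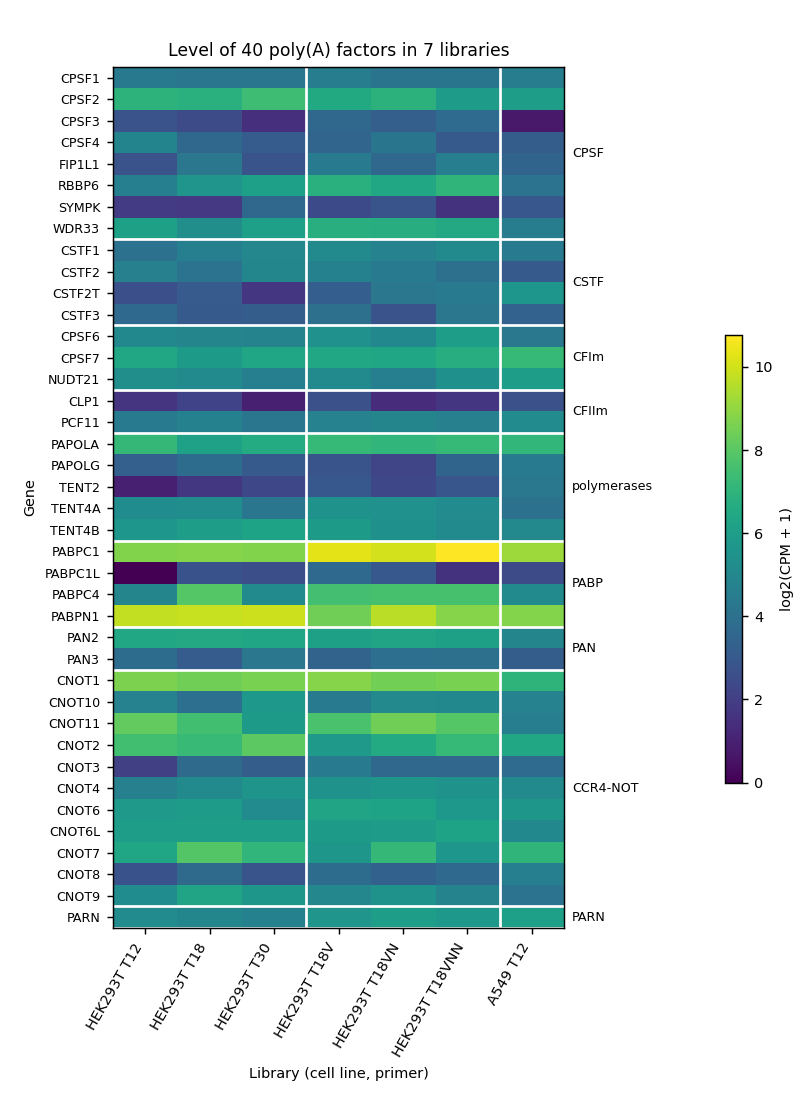
Level of each of the 40 factors, log2(CPM + 1), in the 7 libraries, grouped by complex (colour; compare along a row, since CPM is not corrected for length). The PABPC1 row is brightest in the anchored HEK293T columns, and the CNOT1, CNOT11 and PAN2 rows are darkest in A549.

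The A549 library was compared with the HEK293T library of the same primer, T12, on the log2(CPM + 1) scale, and folds below are ratios of CPM. With 1 library each there is no test, the ratio covers these libraries only, and intervals cover counting error only. In such bulk RNA fewer cells and less RNA per cell cannot be told apart. Of 34 factors with at least 20 reads in either library, 4 were at least 2-fold higher in A549 and 11 lower. Over all 10175 genes with that many reads, 31.0% were higher and 29.2% lower, 60.2% in all.

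The factors' median log2 ratio was -0.22, beside 0.02 for all genes (-0.24 with TMM and -0.26 with library totals, which move all ratios down). Against the range of the 6 HEK293T libraries, 9 of the 34 lay above (33.7% of all genes) and 11 below (28.8%).

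CCR4-NOT messages accounted for 5 of the 11 lower factors, out of 10 with enough reads, beside 29.2% lower over all genes. CNOT11 showed the lowest ratio, with 23.3 CPM (35 reads) in A549 against 289 CPM (946 reads) in HEK293T, 12.4-fold lower (95% interval 8.85 to 17.9), and 56.3 to 344 CPM over HEK293T. CNOT1 had 126 CPM (189 reads) against 396 CPM (1294 reads), 3.14-fold lower (2.70 to 3.68) and below the narrow HEK293T range of 342 to 444 CPM. CNOT9 had 16.0 against 36.7 CPM and CNOT6L 31.3 against 63.9 CPM, both below the HEK293T range. CNOT2, at 84.6 against 179 CPM, was within it.

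The summed level of the 11 CCR4-NOT genes was 560 CPM in A549 and 1013 to 1217 CPM in HEK293T. Most of the gap to T12 (1162 CPM) lay in CNOT1 and CNOT11, so the sum does not describe each gene. CNOT4, CNOT6, CNOT7 and CNOT10 were within 2-fold of T12. CNOT8 was the only CCR4-NOT gene at least 2-fold higher among the 10 with enough reads, with 24.0 CPM (36 reads) in A549 against 5.504 CPM (18 reads), above the HEK293T maximum of 13.1 CPM. CNOT7, at 131 CPM, lay within the HEK293T range, and CNOT7 still held 83.5% of the pair per length. CNOT6 held 69.3% of its pair with CNOT6L.

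PAN2 had 28.7 CPM (43 reads) in A549 against 85.6 CPM (280 reads), 2.99-fold lower (2.16 to 4.22), with a HEK293T range of 68.3 to 89.9 CPM. PARN, another deadenylase, was not lower: at 66.0 against 35.5 CPM it lay just above the HEK293T maximum of 63.9 CPM.

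In the cleavage machinery CSTF2T was above CSTF2 in A549, as it was by reads, but not per length, with T18VNN in HEK293T (77 and 53 reads). CSTF2 had 7.33 CPM (11 reads) in A549 against 25.1 CPM (82 reads), 3.42-fold lower (1.82 to 7.12). CSTF2T had 49.97 CPM (75 reads) against 5.20 CPM (17 reads), 9.61-fold higher (5.62 to 17.4), and its HEK293T maximum was 21.4 CPM. Per length CSTF2 was 18.5% of the pair in A549 and at least 51.6% in each HEK293T library. PRKG1, in whose span CSTF2T lies, had 0 reads in A549.

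WDR33 had 22.7 CPM (34 reads) in A549 against 68.8 CPM (225 reads), 3.04-fold lower (2.11 to 4.49) and below the HEK293T range. RBBP6, at 16.0 against 23.8 CPM, was also below that range. CPSF4 was 3.48-fold lower, on 12 and 91 reads, but within the HEK293T range. CPSF3 had 1 read in A549 and 19 with T12 in HEK293T, under the minimum of 20. CPSF1 had 22.7 CPM against 19.3 CPM, just above the HEK293T maximum of 22.0 CPM, and its log2 ratio of 0.22 turned negative with TMM (-0.04) and library totals (-0.09). SYMPK had 10 reads in A549.

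CPSF7 held a larger share of its pair with CPSF6 in A549 than in any HEK293T library. CPSF7 had 145 against 83.8 CPM and NUDT21 63.3 against 38.5 CPM, both above the HEK293T range. CPSF6, at 18.7 against 31.2 CPM, was below it, and CPSF7 held 93.5% of the pair per length. PCF11 of CFIIm had 35.3 against 20.5 CPM.

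Among the polymerases PAPOLA was close in these libraries, at 137 and 144 CPM (ratio 0.946, 95% interval 0.799 to 1.12). TENT4A had 15.3 CPM (23 reads) in A549 against 36.4 CPM (119 reads), 2.37-fold lower (1.51 to 3.89) and below the HEK293T range, and with TENT4B at 32.6 against 49.8 CPM the pair was nearly equal per length (49.7% TENT4A). PAPOLG had 20.7 CPM (31 reads) against 8.87 CPM (29 reads), 2.33-fold higher (1.36 to 4.01), a log2 ratio of 1.13 that was 0.88 with TMM and 0.58 with library totals.

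TENT2, named after its values were seen, had 28 reads in A549 and 3 in HEK293T with T12, a ratio of 20.3 with an interval of 6.28 to 105. Its 18.7 CPM lay above the HEK293T maximum of 6.75 CPM. Of the poly(A)-binding proteins, PABPC1 had 581 against 426 CPM and PABPN1 427 against 880 CPM (2.06-fold lower, 1.89 to 2.25), each within the HEK293T range. PABPC4 was 1.22-fold higher than in HEK293T with T12, but its log2 ratio of 0.28 became -2.42 against the median of the 6 HEK293T libraries.

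**Figure D5:**
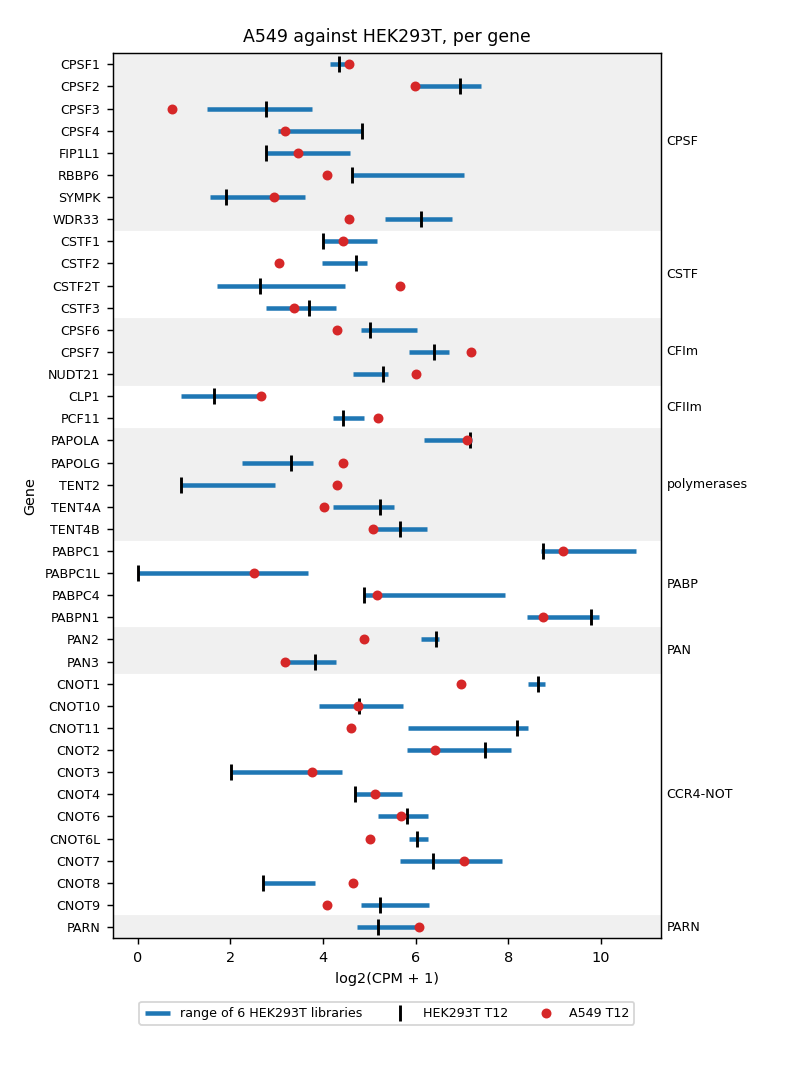
Level of each factor, log2(CPM + 1), in A549 with T12 (red points), in HEK293T with T12 (black ticks) and over all 6 HEK293T libraries (blue bars, lowest to highest). CNOT1, CNOT11, PAN2, WDR33 and CSTF2 lie left of their bars in A549, and CSTF2T, TENT2 and CNOT8 lie right of them.

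Which member led a paralogous family per length was the same in all 7 libraries for 4 of 7 families. These were CNOT7 over CNOT8, CPSF7 over CPSF6, PABPC1 over PABPC4 and PABPC1L, and PAPOLA over PAPOLG. The lead varied between libraries for CSTF2 and CSTF2T, TENT4A and TENT4B, and CNOT6 and CNOT6L. By reads uncorrected for length, TENT4B led TENT4A and CNOT6L led CNOT6, each in 4 of 6 HEK293T libraries, and CSTF2T led CSTF2 with T18VNN as well as in A549.

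Some factors have a deposited transcript that ends at another site, and the reads on it relative to the main entry varied by library. A short CSTF3 transcript had 36.6% to 146% as many reads as the long one in HEK293T and 0 reads (of 14 on the long one) in A549. The short RBBP6 transcript had 44.9% with T12 and 2.07% to 16.7% with the other HEK293T primers, on 3 to 59 reads. For WDR33 the shortest transcript had 12.9%, 17.6% and 33.8% without an anchor and 7.52%, 7.21% and 4.32% with one. Reads on exons that both transcripts share count for both, so these are not shares of molecules.

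Of 64 other genes of tail metabolism, in 5 lists, 58 were tested in the primer contrast and 0 passed in edgeR (11 had an unadjusted p under 0.05, and DESeq2 called 5). Over all 10924 genes, edgeR called 1.35%, 15.6% had an unadjusted p under 0.05 and DESeq2 called 605, so these counts are near the background. Their median log2 fold change was 0.16. In A549, 57 had enough reads, of which 25 were at least 2-fold higher and 9 lower, with a median log2 ratio of 0.56, beside 31.0% higher, 29.2% lower and a median of 0.02 over all genes. The proteins that bring deadenylases to messages, with the deadenylases outside the 40, held 9 higher and 2 lower of 16.

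ZFP36L1, which binds AU-rich elements and recruits CCR4-NOT, had 1149 CPM (1724 reads) in A549 against 63 reads with T12 in HEK293T, 59.6-fold higher (46.4 to 78.0), with a HEK293T maximum of 56.8 CPM. Its relative ZFP36 had 75 reads in A549 and 2 in HEK293T with T12, a ratio of 81.7 with an interval of 21.8 to 687. At the other end, TUT1, a terminal uridylyltransferase, had 29 reads in A549 against 479, 7.58-fold lower. That fold rests largely on the T12 library of HEK293T. TUT1 stood at 19.3 CPM in A549, 146 CPM with T12 and 26.1 to 53.2 CPM with the other HEK293T primers. TNRC6C, which links microRNA complexes to deadenylases, had 25 reads against 181, 3.32-fold lower. Of the other lists, 3′ end processing and termination held 8 higher and 2 lower of 14, and decapping 4 and 2 of 14. The nucleotidyltransferases held 3 and 2 of 6, and other PABPs and partners 1 and 1 of 7. Over all genes 31.0% were higher and 29.2% lower.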

How the data were processed

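The authors deposited, for each RefSeq transcript, a read count, FPM (a signal relative to library size) and FPKM (FPM corrected for transcript length), per the file headers. The submitters' processing notes name FastQC 0.11.8, cutadapt 2.10, Trimmomatic 0.39, HISAT2 2.2.1 and SAMtools, and the builds GRCh37 and hg19. Annotation release, multi-mapped reads and strand use are not given in the sources used here. Of 61177 entries, 60602 (99.06%) matched a symbol, 60127 through the RefSeq table and 475 (CNOT6 among them) through GENCODE release 29 only. Each gene was represented by its entry with most reads summed over the 7 libraries.

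Library totals, recovered as count over FPM, were 7491993 to 25578543. Anchored and unanchored HEK293T libraries (3 each) were compared with edgeR 4.0.16 in R 4.3.3 (filterByExpr, TMM, quasi-likelihood test, Benjamini-Hochberg adjustment at 0.05). Each primer had 1 library and stood in for a replicate, so p-values measure the spread between libraries made with different primers, which may be technical. On simulated counts for this contrast (11114 genes) the test recovered 10% of 2-fold, 48% of 4-fold, 92% of 8-fold and 100% of 16-fold changes and called 0.0733% of unchanged genes. The simulation gave every gene the same dispersion, slightly below that of the data. Its changed genes had at least 20 reads in at least 3 libraries, so recovery may be lower for factors with fewer reads. A549 was set beside HEK293T T12 with a pseudocount of 1 CPM and a minimum of 20 reads in either library. Ratio intervals are exact 95% binomial and cover counting error only.

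Genes given in full by library were the factors with the smallest p in the primer contrast (6), those at least 2-fold different in A549, outside the HEK293T range with 50 or more reads in the larger library, the 7 paralogue families, CNOT1, CPSF1, SYMPK and PARN, and the factors highest and lowest per length. Of the 64 other genes, the 2 highest and 2 lowest A549 ratios under the same read and range rule were named. Other genes were named after their values were seen. Members and lists were chosen with earlier results of these data known. Alternatives were DESeq2 1.42.0, other scalings, filters, transcripts and pseudocounts, and each library left out in turn. The 2 A-run alternatives were chosen after seeing the data. Poly(T) lengths, deposited for the other 2 libraries, and gene body coverage were not analysed here.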

Additional observations from a re-analysis of the deposited data

Results flagged for a closer look

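TENT4A stood apart in 1 HEK293T library, at 17.6 CPM (39 reads) with T30 against 35.2 to 45.5 CPM with the other 5 primers. The gap to its nearest neighbour was 0.634 of the whole range, above Dixon's 95% critical value for 6 libraries. The levels of 40 factors were looked at in this way, and chance flags about 1 in 20, or 2 here. With T30 the log2 fold change of TENT4A, anchored over unanchored, was 0.27, and without it 0.00073.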

How the results depend on the processing

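The count of genes called between primer types was 148 in edgeR, 605 in DESeq2, 560 with no filter on low counts and 46 to 111 when 1 library was left out. DESeq2 called 280 higher and 325 lower. Of the factors, 1 was called in edgeR, 2 in DESeq2 (PABPC1 and CNOT2), 0 where genes overlapping another gene were left out, which removes PABPC1 (1 of 23 factors then had an unadjusted p under 0.05), and 0 to 1 when 1 library was left out. The 1 was PABPC4 without T18 and PABPC1 without T18VN. Signs of the log2 fold change turned under at least 1 alternative for 13 factors between primer types and 5 in A549, none of them past its threshold in the reported values. Between primer types, total gene reads without TMM turned CPSF1 (0.031), NUDT21 (0.044), CNOT1 (0.088) and CNOT6L (0.0043) positive. With 1 library left out in turn, the log2 fold change ran from -0.98 to 0.11 for CPSF4 (positive without T12), -0.98 to 0.48 for SYMPK, -0.49 to 0.15 for PAN3 and -0.67 to 0.33 for CNOT10 (these 3 positive without T30), and -0.32 to 0.062 for NUDT21 (positive without T18VN). It ran from -0.050 to 0.20 for CPSF7 (negative without T18 and without T18VNN) and -0.020 to 0.68 for CSTF3 (negative without T18VNN). With the longest transcript in place of the one with most reads, PAPOLA (-0.78), PABPC1L (-1.50) and CNOT4 (-0.23) turned negative between primer types. In A549 the factors at least 2-fold higher numbered 4, and 8 with no minimum of reads, and 3 or 4 under the other alternatives. The factors at least 2-fold lower numbered 11, and 8 to 12 under the alternatives. Only PABPC4 turned its sign past 2-fold, from 0.28 to -2.42 against the median of the 6 HEK293T libraries, which differ from T12 in primer by construction. Families with the same leader in all 7 libraries numbered 4 under both alternatives. No paired analysis was possible because replicate numbers were shared only by HEK293T T12 and A549 T12, and gene counts were analysed in 1 library of each. Depth limits the low factors most: 6 factors had under 20 reads in both T12 libraries.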
